A study of Mus musculus with 5 samples.

Results

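The glucocorticoid and FOXO-linked response genes described here were 10 genes picked by symbol out of 31053 in the count files: Nr3c1, Fkbp5, Tsc22d3, Klf9, Per1, Ddit4, Txnip, Dusp1, Errfi1 and Sgk1. Their transcripts were counted by droplet sequencing of RNA 3′ ends in 5 libraries. Each library held flow-sorted CD4 T cells from kidneys of mice aged 10 weeks that had gone through ischemia-reperfusion injury. Tissue for all 5 libraries was digested with collagenase at 4 mg/ml for 7 minutes at 37 °C and passed through a 70 µm strainer. The part of this step in the levels below was not tested. The 3 knockout libraries were labelled Il1rl1fl/fl Foxp3YFP-Cre and the 2 control libraries, titled wild type, Il1rl1fl/fl. Every mouse thus carried the floxed Il1rl1 allele, which encodes the interleukin-33 receptor ST2, and the injury was unilateral. Cre is driven from Foxp3, the lineage factor of regulatory T cells, so deletion is directed to Foxp3-expressing cells, and since the Foxp3YFP-Cre allele was carried by the knockout mice alone, loss of Il1rl1 and the allele itself cannot be told apart. The labels do not say how many mice gave a library, nor the hour or the hormone state at collection. Knockout against control p-values below are set against the spread between libraries. For comparisons between gates of the same libraries, p-values are set against how the gate difference varies from library to library. The genes were chosen with knockout against control results of these same libraries known, so their knockout differences are given as a description and support nothing.

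The glucocorticoid receptor, encoded by Nr3c1, sits in the cytoplasm with heat shock chaperones, moves to the nucleus when it binds corticosterone, and binds DNA at paired copies of a short half-site. Tsc22d3, Fkbp5, Per1, Ddit4, Klf9, Dusp1, Sgk1 and Errfi1 are among the genes it is known to induce in many tissues. FOXO factors are held out of the nucleus by PI3K and AKT signalling. In resting T cells they keep up homing and quiescence genes such as S1pr1 and Klf2, and Txnip, Ddit4 and Tsc22d3 have been linked to them as well as to glucocorticoids.

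Cells were split by their own UMIs (unique molecular identifiers, 1 for each captured RNA molecule). The Foxp3 gate held 2602 cells with at least 1 Foxp3 UMI. The Cd4 gate held 24713 cells with no Foxp3 UMI and at least 1 Cd4 UMI. The macrophage rule, at least 5 UMIs of C1qa, C1qb and C1qc together, took 3024 cells, which were kept out of the other gates. Levels are CPM, the UMIs of a gene per 1000000 UMIs of a gate in a library, and each library counts once. All 10 genes passed the filter on low counts in every comparison.

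The libraries held 4580, 10899 and 5580 barcodes in knockout 1 to 3 and 10146 and 9573 in control 1 and 2, and 38417 of 40778 barcodes were retained. Control 1 stood apart in depth, with a median of 13534 UMIs per retained cell, against 3786 to 7546 in the other 4 libraries. Library pairs shared 2 to 39 barcodes. Il1rl1 was read at 150.8, 61.9 and 68.1 CPM in the Foxp3 gate of knockout 1 to 3, against 76.2 and 62.0 in control 1 and 2, and at 59.3, 37.1 and 22.8 in the Cd4 gate of the knockout libraries, against 8.81 and 8.43 in that of the control libraries. Its 3′ reads need not cover the deleted exons, which the labels do not name, so they do not check the genotype. The Foxp3 gate had its defining gene at 277, 264 and 268 CPM in knockout libraries and 273 and 379 in control libraries. The C1q cells carried macrophage and T cell RNA together. Summed macrophage markers, which include the C1q genes of the rule, were 2520 to 5541 CPM, against 52.4 to 91.1 in the Cd4 gate. Of these cells, 92.4% to 97.3% per library also had a UMI of Cd3e, Cd3d, Cd3g, Trac or Trbc2. Their summed T cell markers were 3775 to 4246 CPM, against 4342 to 5239 in the Cd4 gate. As the name macrophage alone does not describe them, these cells are called the C1q gate below. Xist was at or under 0.19 CPM in every gate, which bears on Tsc22d3 because that gene lies on chromosome X.

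Promoter windows show the DNA in front of the genes that the results turn on. RefSeq windows on GRCm38.p6 (250 bases before to 50 after a start) existed for 9 of the 10 genes, 18 windows in all, and not for Nr3c1. Both strands were searched for the receptor's half-site AGAACA, its palindrome (the half-site and its reverse complement TGTTCT, 3 bases apart), the FOXO motif GTAAACA, the E-box CACGTG of clock factors and the cAMP element TGACGTCA. The palindrome lay in 0.00913% of all 32851 mouse windows, the half-site in 19.0%, the FOXO motif in 3.65%, the E-box in 7.15% and the cAMP element in 1.79%. Below, the 250 bases before a start are printed 5′ to 3′ on the gene's strand, and capitals mark every match on either strand. Tsc22d3, Txnip and Ddit4 are shown for their knockout differences, Dusp1 for its difference between gates and Sgk1 for the palindrome.
Tsc22d3, chrX:140600523-140600772, minus strand: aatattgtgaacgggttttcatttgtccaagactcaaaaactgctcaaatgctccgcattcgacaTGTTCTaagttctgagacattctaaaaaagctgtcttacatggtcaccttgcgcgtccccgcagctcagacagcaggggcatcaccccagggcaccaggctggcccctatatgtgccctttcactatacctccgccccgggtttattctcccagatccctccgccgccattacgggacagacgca
Txnip, chr3:96557707-96557956, plus strand: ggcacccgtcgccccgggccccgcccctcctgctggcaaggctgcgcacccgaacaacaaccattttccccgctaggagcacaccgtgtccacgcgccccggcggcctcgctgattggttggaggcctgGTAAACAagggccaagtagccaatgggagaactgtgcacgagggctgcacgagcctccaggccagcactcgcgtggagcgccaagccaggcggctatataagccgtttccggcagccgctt
Ddit4, chr10:59951771-59952020, minus strand: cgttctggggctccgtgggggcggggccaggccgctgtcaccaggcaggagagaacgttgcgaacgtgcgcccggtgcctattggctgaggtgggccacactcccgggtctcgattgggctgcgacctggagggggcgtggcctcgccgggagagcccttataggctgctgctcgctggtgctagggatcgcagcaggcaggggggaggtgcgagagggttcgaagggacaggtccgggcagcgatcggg
Dusp1, chr17:26508473-26508722, minus strand: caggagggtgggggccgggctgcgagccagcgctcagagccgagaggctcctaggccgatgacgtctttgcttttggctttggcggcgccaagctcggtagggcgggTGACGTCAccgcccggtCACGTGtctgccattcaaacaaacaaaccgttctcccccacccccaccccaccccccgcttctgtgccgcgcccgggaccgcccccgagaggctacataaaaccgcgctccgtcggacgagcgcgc
Sgk1, chr10:21993640-21993889, plus strand: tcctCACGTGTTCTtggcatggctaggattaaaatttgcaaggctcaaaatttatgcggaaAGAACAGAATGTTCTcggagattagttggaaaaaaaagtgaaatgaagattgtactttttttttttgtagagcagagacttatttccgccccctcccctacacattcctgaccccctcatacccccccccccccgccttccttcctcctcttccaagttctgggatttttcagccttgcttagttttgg
The Tsc22d3 window shown held a half-site 185 bases before the start, while the other windows of Tsc22d3 matched none of the motifs. Half-sites lay in 4 of the 18 windows, from 2 genes, beside 19.0% of all mouse windows. The Txnip window held a FOXO motif beginning 121 bases before the start. The Ddit4 window matched none of the motifs. Dusp1 held a cAMP element and an E-box, and its window was 1 of 4 with an E-box among the 18, beside single windows of Fkbp5, Per1 and Sgk1. The palindrome was found in 3 windows of the mouse table, of which 1 belonged to the 9 genes searched, in the Sgk1 window above. There it begins 189 bases before the start and itself contains both half-sites of that stretch, while the first capitals are an E-box that overlaps a further half-site. Klf9 (chr19:23140976-23141225) carried a FOXO motif and Errfi1 (chr4:150854820-150855069) a cAMP element. A match is a run of letters, and no binding was measured here. In GENCODE M21 on mm10, Tsc22d3 spans chrX:140539528-140600659, Ddit4 chr10:59949669-59951834 and Dusp1 chr17:26505590-26562128, all on the minus strand. Txnip spans chr3:96557957-96561883 and Sgk1 chr10:21882184-21999903, both on the plus strand. Among genes in the count files, no other gene on the same strand overlaps any of the 10.

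Ddit4 had the largest fold change between genotypes among the 10 genes in each of the 3 gates. It encodes REDD1, a brake on the growth kinase complex mTORC1. In the Foxp3 gate it stood at 144, 109 and 129.7 CPM in knockout 1 to 3, against 59.5 and 92.9 in control 1 and 2. The Cd4 gate of the knockout libraries had 99.9, 109 and 91.2, against 43.3 and 59.8 in the control libraries. Every knockout library was above both control libraries in each of these gates, and the lower control value was that of the deep library each time. The log2 fold change, knockout over control, was 0.74 (SE 0.20, 95% interval 0.29 to 1.18) in the Foxp3 gate and 0.93 (SE 0.16, 0.55 to 1.32) in the Cd4 gate. Neither passed in edgeR after adjustment over all genes (adjusted p = 0.773 and 0.688). In the Cd4 gate the other count model, DESeq2, gave an adjusted p of 2.91e-04, and over the 16 alternatives reported for that value the adjusted p ran between 1.2e-06 and 0.874. The adjusted p of the Foxp3 gate ran between 4.1e-06, with no filter on low counts, and 0.999. Without control 1 the log2 fold change was 0.42 in the Foxp3 gate and 0.70 in the Cd4 gate, and in the Foxp3 gate without cells that had a Mki67 or Top2a UMI it was 1.19.

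Txnip, an arrestin family protein that binds thioredoxin and curbs glucose uptake, was higher in the knockout libraries without overlap in both T cell gates. Its levels were 241, 245 and 319.7 CPM in the Foxp3 gate of the knockout libraries, against 205 and 235 in the control libraries. Cd4 gate levels were 313, 287 and 301 in the knockout libraries, against 199 and 241 in the control libraries. The groups lay close in the Foxp3 gate, where control 2 was just under knockout 1, and further apart in the Cd4 gate. Knockout over control, this was a log2 fold change of 0.26 (SE 0.15, interval -0.08 to 0.59) in the Foxp3 gate and 0.42 (SE 0.12, 0.14 to 0.71) in the Cd4 gate. The Cd4 gate value was 0.27 without control 1. Without knockout 3 the Foxp3 gate value was 0.12, and in that gate without cells that had a Mki67 or Top2a UMI it was 0.07.

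Tsc22d3 encodes GILZ, a leucine zipper protein that carries part of the anti-inflammatory action of glucocorticoids. Its levels in the Foxp3 gate were 67.0, 66.9 and 77.8 CPM in knockout 1 to 3, against 48.4 and 47.6 in control 1 and 2. The Cd4 gate gave 78.6, 61.7 and 72.7 in knockout libraries, against 44.0 and 57.3 in control libraries. The groups did not overlap in either gate, and the gap was wider against the spread within groups in the Foxp3 gate. The log2 fold change was 0.51 (SE 0.12, interval 0.25 to 0.78; adjusted p = 0.745 in edgeR) there and 0.46 (SE 0.16, 0.08 to 0.85; adjusted p = 0.879) in the Cd4 gate. In the Cd4 gate it was 0.26 without control 1, and it stayed between 0.45 and 0.65 under all 16 alternatives in the Foxp3 gate. With no filter on low counts Tsc22d3 passed in the Foxp3 gate (adjusted p = 0.0211, against 0.287 to 0.999 under the others) and in the Cd4 gate (0.042, against 0.472 to 0.994).

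Fkbp5, a co-chaperone that lowers the receptor's affinity for its hormone, was higher by less. The Foxp3 gate held 151.3, 154.4 and 186.3 CPM in the knockout libraries and 133 and 132 in the control libraries. Its Cd4 gate levels were 131, 135 and 173 in the knockout libraries and 116 and 118 in the control libraries. The groups did not overlap in either gate, and knockout 3 was the highest library in both. Fkbp5 had a log2 fold change of 0.27 (SE 0.12, interval 0.01 to 0.54) in the Foxp3 gate and 0.30 (SE 0.14, -0.04 to 0.64) in the Cd4 gate, and 0.15 in the Cd4 gate without knockout 3.

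Errfi1, which encodes MIG6, a feedback inhibitor of the EGF receptor, was also higher without overlap in both T cell gates. It had 16.0, 15.7 and 10.7 CPM in the Foxp3 gate of the knockout libraries, against 8.64 and 10.4 in the control libraries, which rested on 23 to 136 UMIs per library. The Cd4 gate gave 13.5, 19.3 and 13.5 in the knockout libraries, against 10.6 and 11.4 in the control libraries. Knockout 3 and control 2 were almost level in the Foxp3 gate. Errfi1 had a log2 fold change of 0.59 (SE 0.25, interval 0.034 to 1.154) in the Foxp3 gate and 0.47 (SE 0.19, 0.00 to 0.93) in the Cd4 gate, where it was 0.27 without knockout 2.

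**Figure D1:**
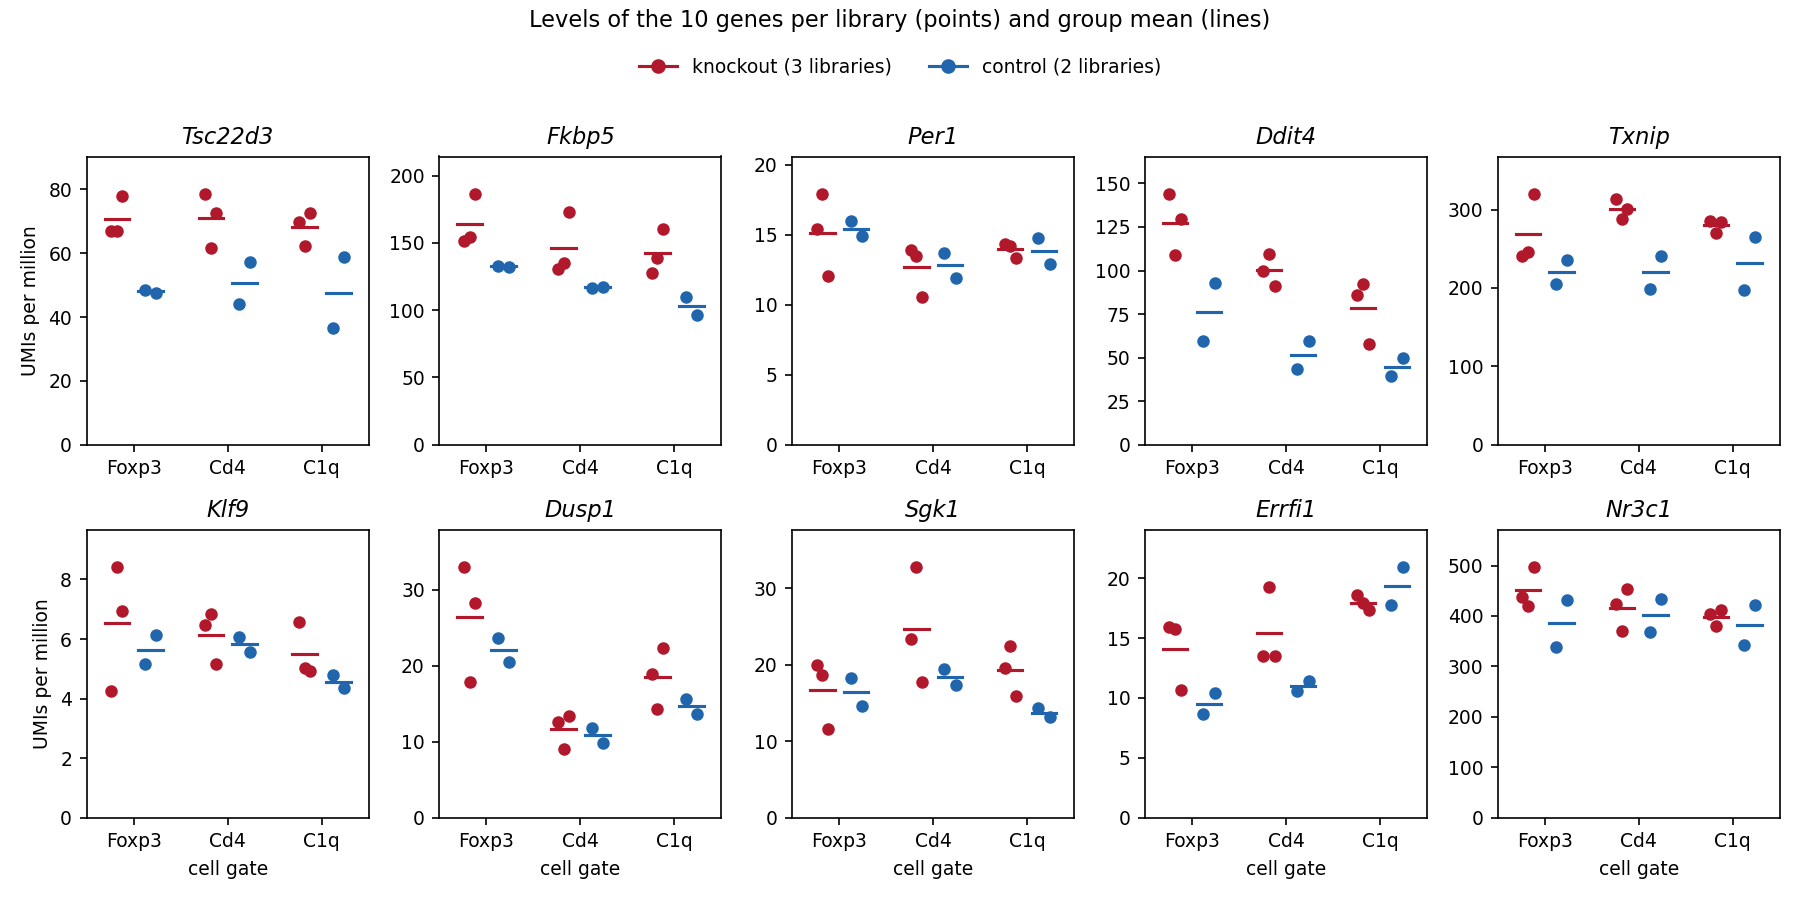
Levels of the 10 genes in CPM (vertical axes, each from 0) in the Foxp3, Cd4 and C1q gates; red points are the 3 knockout libraries, blue points the 2 control libraries and lines the group means. Ddit4, Tsc22d3, Txnip and Fkbp5 sit higher in all knockout libraries in each gate, while the points of Per1 and Nr3c1 overlap.

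The remaining 5 genes overlapped between genotypes in both T cell gates. Nr3c1, the receptor itself, had 437, 420.0 and 497 CPM in the Foxp3 gate of the knockout libraries, against 339 and 432 in the control libraries, and 424, 369.5 and 453 in the Cd4 gate of the knockout libraries, against 368 and 435 in that of the control libraries. Its log2 fold change was 0.20 (SE 0.14, interval -0.12 to 0.51) in the Foxp3 gate and 0.03 (SE 0.14, -0.30 to 0.35) in the Cd4 gate. Without control 1 the Foxp3 gate value was 0.03, and without control 2 it was 0.39. Receptor transcript in the Cd4 gate thus differed by less than the spread between libraries.

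Per1, a repressor of the circadian clock, was at 15.42, 17.89 and 12.05 CPM in the Foxp3 gate of the knockout libraries, against 15.9 and 14.9 in the control libraries. Its log2 fold change was -0.03 (SE 0.21, interval -0.52 to 0.45) there and -0.04 (SE 0.16, -0.42 to 0.34) in the Cd4 gate, where knockout libraries had 13.9, 13.5 and 10.6 against 13.7 and 11.9 in control libraries. Klf9, a zinc finger repressor, had 4.25, 8.41 and 6.95 CPM in the Foxp3 gate of the knockout libraries, against 5.15 and 6.12 in that of the control libraries, from only 15 to 81 UMIs a library, with a log2 fold change of 0.22 (SE 0.36). Both genes overlapped between genotypes, and the Klf9 interval of -0.59 to 1.04 allows a change in either direction.

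Dusp1 encodes MKP-1, a phosphatase that switches off MAP kinases. In the Foxp3 gate it had 33.0, 17.9 and 28.3 CPM in the knockout libraries, against 23.6 and 20.5 in the control libraries, with a log2 fold change of 0.19 (SE 0.25). Sgk1, a kinase related to AKT, had 19.9, 18.6 and 11.6 in that gate of the knockout libraries, against 18.2 and 14.6 in that of the control libraries, a log2 fold change of 0.01 (SE 0.24). For Sgk1 the Cd4 gate had 23.4, 32.8 and 17.7 in the knockout libraries, against 19.5 and 17.3 in the control libraries. Knockout 2 alone was far above the rest, and the Cd4 gate fold change of 0.40 (SE 0.24) was 0.14 without it.

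Across all genes, edgeR called 0 of 10905 genes between genotypes in the Foxp3 gate and 0 of 13475 in the Cd4 gate, so 0% in each, with 527 and 727 genes at an unadjusted p under 0.05 and 16 and 59 genes called by DESeq2. Of the 10 genes, 5 were higher without overlap in the Foxp3 gate, where 9.65% of all genes were, and 5 in the Cd4 gate, where 10.2% were. None of the 10 was lower without overlap, as 10.5% of all genes were in the Foxp3 gate and 9.09% in the Cd4 gate, and genes without overlap either way made up 20.1% and 19.3%. The median log2 fold change of the 10 genes was 0.24 in the Foxp3 gate, against -0.01 for all genes tested, and 0.35 in the Cd4 gate, against 0.01. Because these genes were chosen with such differences in view, nothing is read from the counts.

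Some summed cell type markers did not overlap between genotypes in the same gates, and no gene of these lists passed in edgeR. Summed naive T cell markers were 1196, 1016 and 1234 CPM in the Cd4 gate of the knockout libraries, against 1440 and 2002 in the control libraries, and all 8 of the list's genes were lower there without overlap, beside 9.09% of all genes. The naive sum of the Foxp3 gate was 1052, 931 and 1203 CPM in the knockout libraries, against 1274 and 1516 in the control libraries, with 8 of 8 genes negative and 4 of them without overlap, beside 10.5% of all genes. Summed Treg markers in the Cd4 gate were 694, 681 and 669 in the knockout libraries, against 477 and 543 in the control libraries. Summed proliferation genes in the Cd4 gate were 656, 829 and 1421 in the knockout libraries, against 619 and 715 in the control libraries. These naive and Treg sums did not overlap between genotypes, while the proliferation sums did. Summed B cell markers in the Foxp3 gate were 470, 238 and 278 in the knockout libraries, against 1390 and 451 in the control libraries, and knockout 1 was above control 2. Summed NK cell markers in that gate were 44.1, 11.3 and 30.1 in the knockout libraries, against 48.6 and 45.8 in the control libraries. Their part in the knockout differences was not tested, other than by leaving out cells with proliferation gene UMIs. Ddit4 was 1.08 higher on the log2 scale in Cd4 gate cells with no Mki67 or Top2a UMI. As libraries of sorted cells were summed, more RNA per cell and more cells of a high-expressing kind cannot be told apart.

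**Figure D2:**
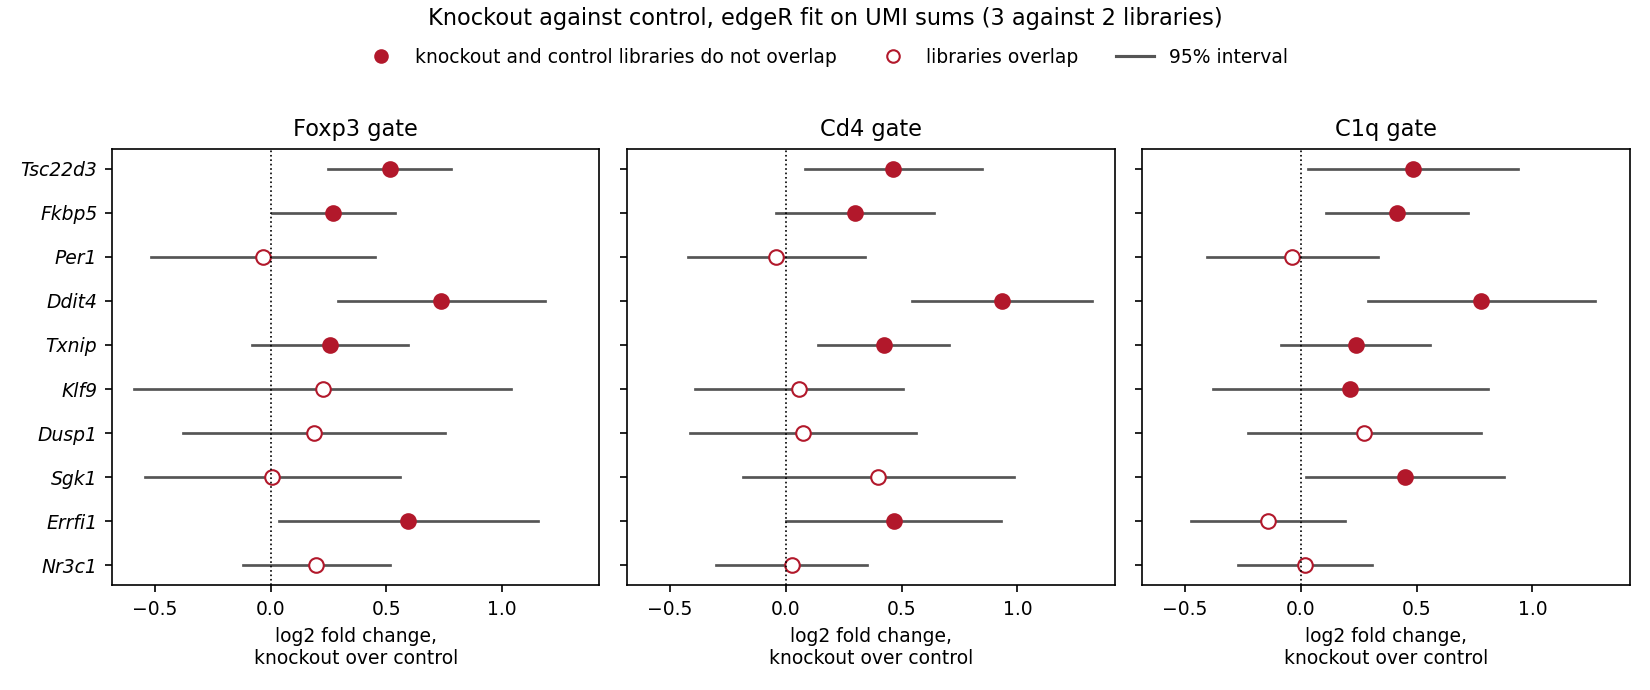
Log2 fold change of each gene, knockout over control (horizontal axis), with its 95% interval from the edgeR fit on UMI sums of 3 knockout and 2 control libraries, for the Foxp3, Cd4 and C1q gates. Filled points mark genes whose knockout and control libraries do not overlap; Ddit4 has the largest value in each panel, at 0.74, 0.93 and 0.78.

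Whether the knockout difference itself differed between the gates was tested with the library as a term. Of 13441 genes, 5 passed (0.0372%; 0.0149% upward and 0.0223% downward), 628 had an unadjusted p under 0.05, and none of the 10 genes passed. Tsc22d3 differed between gates by 0.02 on the log2 scale (interval -0.32 to 0.35), Fkbp5 by -0.01 (-0.18 to 0.17), Ddit4 by -0.21 (-0.54 to 0.13) and Txnip by -0.18 (-0.45 to 0.10). The lowest unadjusted p values were those of Nr3c1, at 0.044 with a difference of 0.19, and Sgk1, at 0.051 with -0.42 (interval -0.85 to 0.00). With 1 library left out, the value of Ddit4 was as near 0 as -0.02 (without knockout 2), that of Txnip -0.08 (without knockout 1) and that of Sgk1 -0.22 (without knockout 2). Neither gate was thus shown to carry a larger knockout difference than the other for these genes, within the intervals given.

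Foxp3 gate and Cd4 gate cells of the same library were then compared, with the library as a term. Foxp3 gate cells had more UMIs, with medians of 10867, 5724 and 5118 in knockout 1 to 3, against 7864, 4710.5 and 4425. In control 1 and 2 the medians were 15899 and 5035, against 14048 and 4295 in the Cd4 gate. Regulatory T cells without a captured Foxp3 UMI fall in the Cd4 gate, so the gates do not cleanly part the 2 kinds. The part of depth was not tested. Dusp1 differed most. Its levels were 33.0, 17.9 and 28.3 CPM in the Foxp3 gate of knockout 1 to 3 and 23.6 and 20.5 in that of control 1 and 2, against 12.6, 9.10 and 13.4 and then 11.9 and 9.88 in the Cd4 gate of the same libraries. The lowest Foxp3 gate value was above the highest Cd4 gate value, and the rise was seen in 5 of 5 libraries. The log2 fold change was 1.05 (SE 0.09, interval 0.86 to 1.24; edgeR adjusted p = 1.87e-05), and it stayed between 0.921 and 1.153 under all 14 alternatives.

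Ddit4 rose by 0.36 on the log2 scale in the Foxp3 gate (SE 0.08; edgeR adjusted p = 0.00831), in 4 of 5 libraries, the exception being knockout 2 with 108.8 in the Foxp3 gate and 109.2 in the Cd4 gate. Fkbp5 rose by 0.13 (SE 0.03; adjusted p = 0.0245), in 5 of 5 libraries. Sgk1 fell by 0.41 (SE 0.11; adjusted p = 0.025), in 5 of 5 libraries, the smallest step being that of control 1 with 18.2 in the Foxp3 gate and 19.5 in the Cd4 gate. Dusp1 and Ddit4 passed under each alternative. The call of Fkbp5 was lost without knockout 1, knockout 2 or control 1 (adjusted p = 0.104, 0.0848 and 0.0881), with no filter on low counts (0.15) and with libraries thinned to equal mean UMIs (0.0785), and that of Sgk1 without knockout 1, knockout 2 or control 2 (0.0536, 0.104 and 0.065). In all, 3 of the 10 genes passed upward and 1 downward, against 10.9% and 8.66% of 12503 genes, 19.6% in both directions. Of all genes, 18.2% were higher in 5 of 5 libraries and 9.5% lower.

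**Figure D3:**
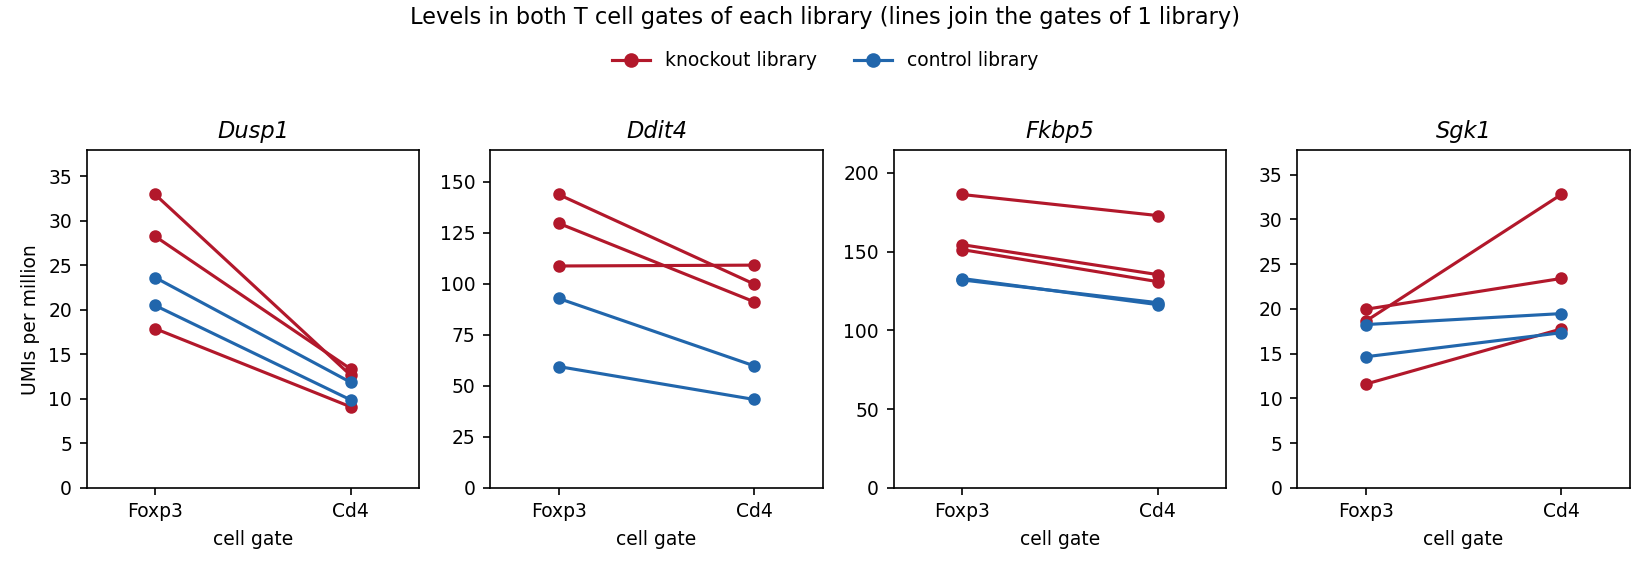
Levels in CPM (vertical axes from 0) of the 4 genes that passed between the Foxp3 gate (left) and the Cd4 gate (right); each line joins the gates of 1 library, red for knockout and blue for control. All 5 lines fall from left to right for Dusp1 and Fkbp5, 4 of 5 for Ddit4, and all 5 climb for Sgk1.

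The other 6 genes did not pass between these gates in edgeR with the filter and cells above. Per1 was higher in the Foxp3 gate in 5 of 5 libraries, by 0.22 on the log2 scale (SE 0.09; edgeR adjusted p = 0.107), and passed without the 5% of cells with most UMIs (0.30; adjusted p = 0.0467, against 0.0549 to 0.343 under the other alternatives). Txnip was at -0.15 (SE 0.07; adjusted p = 0.147); it passed with no filter on low counts (-0.17; adjusted p = 0.0243, against 0.0619 to 0.415 under the others) and was at -0.08 without knockout 1. Errfi1 was at -0.22 (SE 0.10), Tsc22d3 at -0.06 (SE 0.07), Klf9 at -0.06 (SE 0.16) and Nr3c1 at -0.00 (SE 0.05, interval -0.11 to 0.10). Txnip, Errfi1 and Per1 had the largest values of the 6.

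In the C1q gate, Ddit4, Fkbp5, Tsc22d3 and Txnip again had every knockout library above both control libraries, as in the T cell gates. This gate comes from the same 5 libraries and almost all its cells carried T cell RNA, so it is no separate check. Ddit4 had 86.0, 92.1 and 57.6 CPM in knockout 1 to 3, against 39.6 and 49.8 in control 1 and 2. Tsc22d3 had 69.9, 62.2 and 72.5 in the knockout libraries, against 36.6 and 58.8 in the control libraries, and Fkbp5 had 127, 139 and 160.3 in the knockout libraries, against 109.9 and 96.7 in the control libraries. Knockout 3 was the lowest knockout library for Ddit4 and the highest for the other 2 of these genes. Txnip had 285, 270.6 and 285 in the knockout libraries, against 198 and 265 in the control libraries, and Sgk1 had 19.5, 22.5 and 15.9 in the knockout libraries, against 14.3 and 13.2 in the control libraries. Control 2 thus came close to the knockout libraries for Txnip but not for Sgk1. Klf9 did not overlap either, but knockout 3 and control 1 were almost level. It had 6.56, 5.03 and 4.92 in the knockout libraries, against 4.79 and 4.34 in the control libraries, from 33 to 70 UMIs a library. With Klf9, 6 of 10 genes were higher without overlap, where 8.84% of all genes were (8.98% lower, 17.8% either way). Errfi1 had the opposite sign, at -0.14 (SE 0.14). The log2 fold change was 0.78 (SE 0.21) for Ddit4, 0.41 (SE 0.13) for Fkbp5, 0.48 (SE 0.19) for Tsc22d3 and 0.45 (SE 0.18) for Sgk1. edgeR called 0 of 12005 genes here (0%), with 433 at an unadjusted p under 0.05 and 21 called by DESeq2, and without control 1 the values of Tsc22d3 and Txnip were 0.18 and 0.05. Without control 2 the value of Tsc22d3 was 0.84. With no filter on low counts Ddit4 passed here (adjusted p = 0.00252, against up to 0.999995 over its alternatives). Marker sums also differed without overlap in this gate. Summed monocyte markers were 1605, 973 and 1303 CPM in the knockout libraries, against 848 and 870.2 in the control libraries. Summed NK cell markers were 11.2, 18.7 and 14.6 in the knockout libraries, against 30.3 and 34.2 in the control libraries, and summed B cell markers 226, 194 and 205 in the knockout libraries, against 269 and 325 in the control libraries. Their part in the differences of this gate was not tested. Limited to cells without a Cd3 or T cell receptor UMI, the gate held 22 to 57 cells a library. Of the 10 genes, only Txnip and Nr3c1 then passed the filter on low counts, and the Txnip difference turned to -0.34. The other genes could not be tested there.

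Against the Cd4 gate of the same libraries, C1q gate cells had more Dusp1 (log2 fold change 0.56, SE 0.07; edgeR adjusted p = 3.81e-04) and Errfi1 (0.45, SE 0.13; 0.0272), and less Sgk1 (-0.38, SE 0.07; 0.00253) and Ddit4 (-0.30, SE 0.07; 0.00744). These 4 of 10, 2 in each direction, stood against 39.4% of 12654 genes that passed, 21.9% upward and 17.5% downward. Dusp1 was higher in 5 of 5 libraries, as 24.9% of all genes were, Sgk1 and Ddit4 were lower in 5 of 5, as 20.2% were, and Errfi1 was higher in 4 of 5. The Errfi1 call was lost without knockout 1, knockout 3, control 1 or control 2 (adjusted p = 0.0644, 0.0645, 0.0853 and 0.0938). T cell RNA was present in almost every C1q gate cell, as given above, so these values describe a mixture. When the gate was limited, a choice made after seeing the data, to cells without a Cd3 or T cell receptor UMI, 22 to 57 cells a library were left. There Ddit4 was at -3.23 (adjusted p = 2.06e-07), Tsc22d3 at -1.55 (0.00533), Fkbp5 at -1.02 (0.00735) and Errfi1 at 1.79 (0.00296), while Dusp1 at -0.22 (0.884) and Sgk1 at -1.39 (0.167) no longer passed. Over the alternatives of each gene the adjusted p reached 0.0251 for Ddit4, 0.466 for Tsc22d3, 0.219 for Fkbp5, 0.0938 for Errfi1, 0.884 for Dusp1 and 0.167 for Sgk1.

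The order of the group means differed by gene. It includes the genotype differences known when the genes were chosen, over gates of the same 5 libraries, so it is only a description. Tsc22d3 followed genotype, with 71.0, 70.6 and 68.2 CPM in the Cd4, Foxp3 and C1q gates of the knockout libraries, above 50.6, 48.0 and 47.7 in the same gates of the control libraries. Only the step between the genotypes, from the knockout C1q gate to the control Cd4 gate, was free of overlap. Dusp1 followed the gate, with 26.4 in the knockout and 22.1 in the control Foxp3 gate, then 18.5 in the knockout and 14.7 in the control C1q gate, and 11.7 in the knockout and 10.9 in the control Cd4 gate, where the one step without overlap was that into the Cd4 gate. Ddit4 carried both orders, and each of its neighbouring groups overlapped. For Nr3c1 and Per1 no neighbouring groups were separate.

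Over the 10 sums of the Foxp3 and Cd4 gates, less each gate's mean, Tsc22d3 varied with Txnip (Pearson r = 0.90), Ddit4 (0.83) and Fkbp5 (0.78). Ddit4 varied with Txnip (0.85) and Errfi1 (0.78), and Per1 with Sgk1 (0.72) but against Nr3c1 (-0.66) and Fkbp5 (-0.63). These are descriptions over 10 points that share 5 libraries and their depth. Genotype means were not subtracted, so the knockout differences known when the genes were chosen are part of these values. Nothing is read from them. By the same measure, among 3723 genes with a mean of at least 50 CPM, the genes most like Tsc22d3 were Cish, P2rx7 and Becn1, with r between 0.91 and 0.95. Those most like Ddit4 were Ifngr1, Ahctf1 and Fcho1, and those most like Txnip were Tgs1, Ifngr1 and Becn1. Fkbp5 was followed by Nup88, Hnrnpd and Cops5, Errfi1 by Agpat3, Coro1c and Sema4d, Dusp1 by Bbip1, Slmap and Tia1, and Sgk1 by Dnajc5, Fam129a and Ckb. Per1 had Cdc42se2, Wbp1l and Slfn8, Klf9 had Vav1, Sec16a and Trak2, and Nr3c1 had Csnk1g2, Sept6 and Rnf125.

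Lists of related genes were set beside the 10. Of 28 other glucocorticoid-induced genes, 17 were measured in the Foxp3 gate and 25 in the Cd4 gate. Their median log2 fold change, knockout over control, was -0.03 and -0.00, and 10 and 13 of them were negative. In the Foxp3 gate Bcl6, a repressor of the follicular helper programme, was at -0.73 (SE 0.19) and Zfp36l2, an mRNA decay factor, at 0.69 (SE 0.22). Rgs2, a G protein regulator, was at -0.57 (SE 0.10) in the Cd4 gate and Cebpd, a transcription factor, at -0.95 (SE 0.25). Positive and negative genes were thus near balance in this list, and none passed in edgeR.

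FOXO targets and factors were mostly negative, though none passed. Of 21 measured genes, 17 were negative in the Foxp3 gate and 20 in the Cd4 gate, with medians of -0.22 and -0.27, and 2 in the Foxp3 gate and 12 in the Cd4 gate were lower without overlap, beside 10.5% and 9.09% of all genes. Tcf7, a factor of naive and memory T cells, had 285, 225 and 280.0 CPM in the Cd4 gate of the knockout libraries, against 362 and 421 in that of the control libraries, a log2 fold change of -0.60 (SE 0.14; edgeR adjusted p = 0.848). In the Foxp3 gate Foxo1, a FOXO factor itself, was at -0.19 (SE 0.10). These lists overlap: Ccr7, Tcf7, Klf2 and S1pr1, among others, are also in the naive T cell list above.

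Clock genes were mostly positive, 10 of 15 in the Foxp3 gate and 13 of 17 in the Cd4 gate, with medians of 0.16 and 0.15. Bhlhe40, a repressor of the clock that activated T cells also express, was at 0.56 (SE 0.17) in the Foxp3 gate and 0.81 (SE 0.20) in the Cd4 gate. Immediate early and heat shock genes were mostly negative, 18 of 26 and 17 of 26. Jun, a subunit of AP-1, was at -0.87 (SE 0.18) and Hspe1, a mitochondrial chaperonin, at -0.64 (SE 0.14) in the Foxp3 gate, whereas Dusp2, a MAP kinase phosphatase like Dusp1, was at 0.61 (SE 0.13) in the Cd4 gate. In the TSC22, KLF and SGK family 10 of 13 and 9 of 13 were negative. Sgk3 was at -0.81 (SE 0.12) and Nedd4l, a ubiquitin ligase that SGK kinases phosphorylate, at -0.90 (SE 0.18) in the Cd4 gate. Receptor machinery had medians of -0.09 in both gates and the thioredoxin and mTORC1 list 0.08 and 0.02, and no gene of these lists passed.

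**Figure D4:**
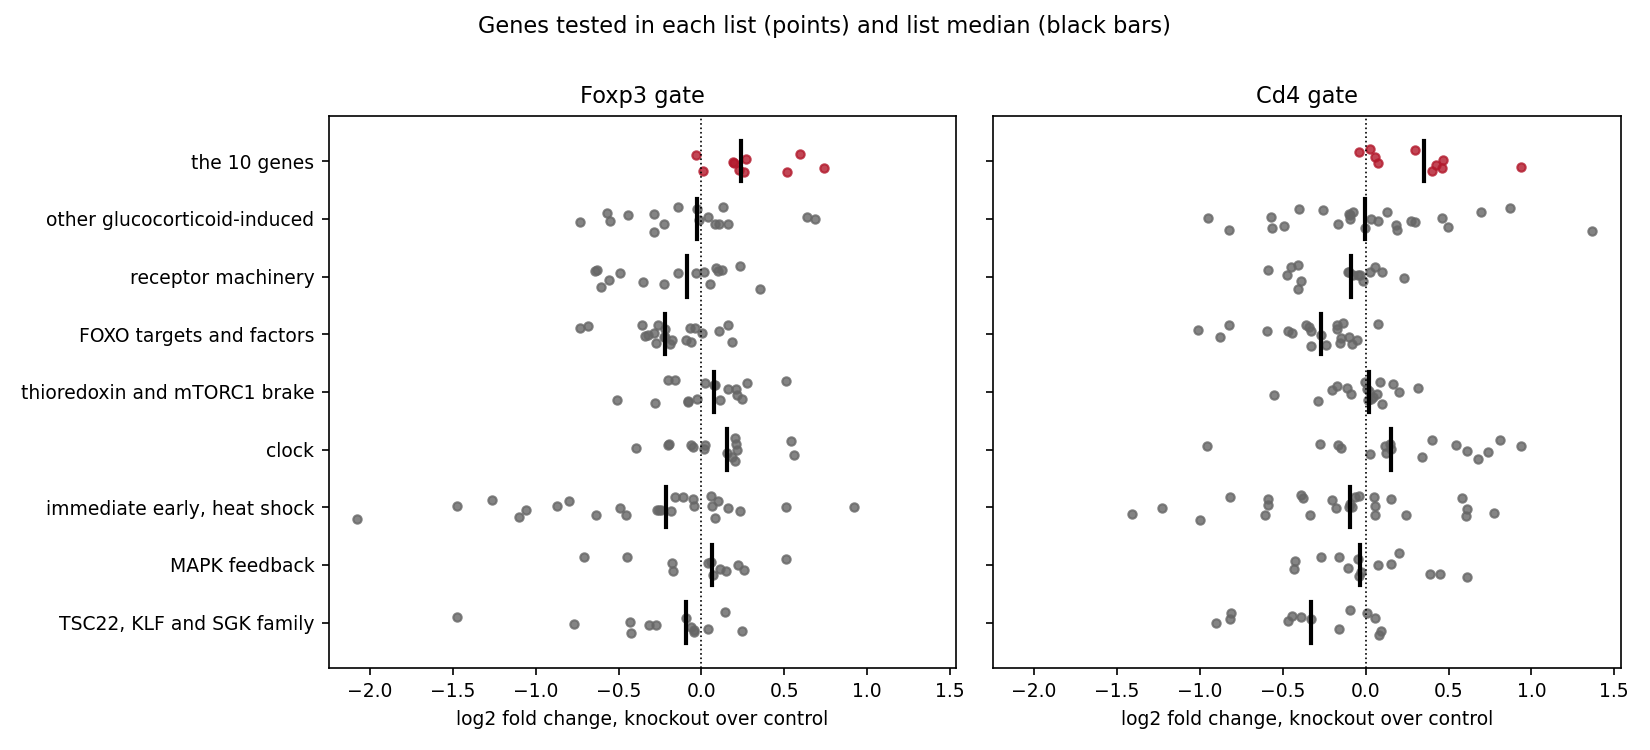
Log2 fold change, knockout over control (horizontal axis), of the genes tested in each list (points, red for the 10 genes) in the Foxp3 gate and the Cd4 gate, with black bars at the list medians. The 10 genes have medians of 0.24 and 0.35, and the FOXO targets and factors -0.22 and -0.27.

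Between the Foxp3 and Cd4 gates many genes of these lists passed. Of 17 clock genes, 8 rose in the Foxp3 gate and 0 fell, where 10.9% of all genes rose and 8.66% fell; Nfil3 rose by 1.04 (SE 0.17) and Npas2 by 0.69 (SE 0.13). Of 21 FOXO genes, 4 rose and 5 fell: Sesn1, a stress-induced brake on mTORC1, rose by 0.62 (SE 0.05) and Foxo1 by 0.28 (SE 0.04), while Tcf7 fell by 0.78 (SE 0.07) and Ccr7 by 0.65 (SE 0.09). Of 23 other glucocorticoid-induced genes, 9 rose and 6 fell, among them Il1r2, a decoy receptor for interleukin-1, up by 2.51 (SE 0.35), and Tgfbr3, down by 1.07 (SE 0.11). Arrdc4, an arrestin related to Txnip, rose by 1.32 (SE 0.14), and Nr3c2, the mineralocorticoid receptor, rose by 0.79 (SE 0.11). Among MAP kinase phosphatases, Dusp4 rose by 1.61 (SE 0.19) and Dusp6 fell by 0.89 (SE 0.08), beside the rise of Dusp1. All of these passed in edgeR, with adjusted p at or under 0.00384.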

How the data were processed

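The values are whole UMI counts for each gene in each barcode, deposited unnormalized, which the authors produced with Cell Ranger (version 8.0.0 in the headers of the files, 8.0 in the notes); per the submitters' processing notes, Seurat 5.1.0 and mm10 were used. Cells with fewer than 500 genes (1906) or at least 10% mitochondrial UMIs (1133) were removed, some for both reasons. Doublets were not called. The C1q gate was taken first and the T cell gates from the rest, and 8078 retained cells fell in no gate. Counts were summed per library and gate and tested over all genes in R 4.3.3 with edgeR 4.0.16 (quasi-likelihood F test, TMM factors, filterByExpr, Benjamini-Hochberg adjustment, threshold 0.05), after a test on simulated data. Levels use no TMM factor, and SE and intervals were derived from the F statistic. DESeq2 1.42.0 was an alternative. Gene overlaps are from GENCODE M21, among genes in the count files: Txnip, Dusp1 and Errfi1 overlap genes on the opposite strand. Members, lists and rules were chosen with earlier results of these data known. List genes were eligible by smallest p: up to 4 that passed or, where none passed, up to 2 without overlap. A subset of these is printed. Limiting the C1q gate to cells without T cell receptor UMIs was chosen after seeing the data. Some genes, and a further way of limiting the Cd4 gate that rests on such a gene, are not reported here.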

Additional observations from a re-analysis of the deposited data

How the results depend on the processing

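Counts of genes that passed between genotypes depended on the model. In the Foxp3 gate, 0 genes passed in edgeR, against 16 with DESeq2 and 289 with no filter on low counts. In the Cd4 gate, 0 became 59 and 447, and 1 with the replicate block, with libraries thinned to equal mean UMIs or without Mki67 or Top2a cells. In the C1q gate, 0 became 21 and 145, and 6 in cells without T cell receptor UMIs. For the difference between gates, 5 became 11 with DESeq2, 166 with no filter, 3 when thinned or without any C1q UMI, and 1 without the 5% of cells with most UMIs. The C1q over Cd4 gate count of 4988 became 2816 in cells without T cell receptor UMIs. The cause was not tested.

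Leaving out 1 library gave 0 to 9 genes in the Foxp3 gate (9 without knockout 1, 3 without control 2, 1 without control 1), 0 to 0 in the Cd4 gate, and 0 to 2 in the C1q gate (2 without control 2). It gave 0 to 8 for the difference between gates (0 without knockout 1, 2 without knockout 2, 8 without knockout 3, 3 without control 1). The Foxp3 over Cd4 gate count of 2451 ran between 1556 (without control 1) and 2700, and the C1q over Cd4 gate count between 4001 and 5028.

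The deviations of same-numbered libraries from their group means correlated at -0.05 and -0.10 in the Foxp3 gate and 0.18 and -0.14 in the Cd4 gate. With 2 control libraries, the deviation of one mirrors that of the other. The values therefore cannot tell whether libraries were paired, which the labels do not say. With the replicate block, signs turned for Per1 (0.071 in the Foxp3, 0.067 in the Cd4 and 0.0016 in the C1q gate), Dusp1 (-0.043, Cd4 gate) and Nr3c1 (-0.046 in the Cd4 and -0.0019 in the C1q gate), and the block changed no call of the 10 genes.

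Other knockout differences that changed sign were near 0 or rested on few UMIs. Without Mki67 or Top2a cells, the Foxp3 gate gave 0.056 for Per1, -0.054 for Dusp1 and -0.27 for Sgk1, and Sgk1 was -0.20 without the 5% of cells with most UMIs. In the C1q gate, Nr3c1 was -0.0029 when thinned and, in cells without T cell receptor UMIs, -0.044, with Txnip at -0.34. The gate difference of Fkbp5 was 0.00105 when thinned, 0.026 without the 5%, 0.0078 with gates not exclusive and 0.021 without any C1q UMI, and that of Tsc22d3 was -0.0017 without the 5% and -0.028 with gates not exclusive.

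Foxp3 over Cd4 gate, Nr3c1 became 0.00088 with DESeq2, 0.0016 with RLE factors, 0.00014 under a strict cell filter, 0.055 without the 5% and 0.0021 without any C1q UMI. Klf9 became 0.038 when thinned and 0.064 without the 5%, and Tsc22d3 0.040 without the 5%. Over the Cd4 gate, the C1q gate gave 0.056 for Txnip without the 5%, and in cells without T cell receptor UMIs -0.43 for Per1, 0.0054 for Klf9 and -0.22 for Dusp1.

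With 1 library left out, knockout differences ran in the Foxp3 gate between -0.022 and 0.43 for Dusp1, -0.10 and 0.20 for Sgk1, -0.068 and 0.48 for Klf9, and -0.19 and 0.085 for Per1. In the Cd4 gate they ran between -0.025 and 0.15 for Klf9, -0.11 and 0.057 for Per1, -0.043 and 0.23 for Dusp1, and -0.11 and 0.17 for Nr3c1. In the C1q gate they ran between -0.12 and 0.16 for Nr3c1 and -0.14 and 0.083 for Per1. The Foxp3 gate difference of Nr3c1 kept its sign, between 0.032 and 0.39. The gate difference ran between -0.16 and 0.26 for Tsc22d3, -0.035 and 0.027 for Fkbp5, -0.31 and -0.018 for Ddit4, -0.29 and -0.077 for Txnip, and -0.61 and -0.22 for Sgk1. Foxp3 over Cd4 gate, Klf9 ran between -0.16 and 0.051, Nr3c1 between -0.038 and 0.054, and Tsc22d3 between -0.098 and 0.011.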
